A study of Homo sapiens with 267 samples.

Results

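The antioxidant genes described here are 9 known targets of the transcription factor NRF2, namely SLC7A11, GCLC, GCLM, TXN, TXNRD1, SRXN1, PRDX1, NQO1 and HMOX1. They were found in the count table by the Ensembl identifier that the annotation gives for each symbol, and all 9 had a row among the 63677 genes of the table. The libraries came from K562, an established human myelogenous leukemia cell line, captured on the Fluidigm C1 microfluidic system and turned into cDNA with the SMARTer kit. The Hoechst run holds 96 untreated libraries stained with a Hoechst DNA dye (2 µM for 20 min) and propidium iodide, from cells labelled as passages 90 to 92. The other runs used cells labelled as passages 20 to 22, stained at 1 µM for 30 min with CellTracker Green CMFDA or CellTracker Orange CMRA and with a dead cell stain. In the benzene run, the Green libraries (36 with counts of 38 titles) are untreated and the Orange libraries (35 of 37) were treated with 10 mM benzene for 3 h. In the imatinib run, the Green libraries (51) are untreated and the Orange libraries (45) were treated with 1 µM imatinib, an inhibitor of the BCR-ABL kinase of these cells, for 1 h. The labels write hours after the passage numbers in all groups. Stain and drug changed together, so they cannot be told apart. The labels name no separate cultures within a run and stain, so each was taken as 1 culture and libraries were not treated as replicates of a treatment. Fresh, fixed, bulk and empty-site libraries of the study were not told apart either.

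NRF2, the product of NFE2L2, is held low in resting cells by KEAP1, which hands it to a CUL3 ubiquitin ligase. Electrophiles and oxidants modify KEAP1, NRF2 then accumulates, and with a small MAF partner it binds antioxidant response elements, where BACH1 acts as a competing repressor. Its targets supply the glutathione and thioredoxin systems, remove quinones and break down heme. Benzene is turned into quinones by oxidative metabolism in tissues that hold the enzymes for it, and NQO1 is the reductase best known for removing them.

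The promoter sequences show which members carry the core of the antioxidant response element close to their start. The letters TGACNNNGC were searched on both strands in the 250 bases before each start site in RefSeq (GRCh38.p14), and no other motif was searched. Windows were found for 6 of the 9 members, and TXNRD1 had a pair of them. Matches lay in the window of GCLM and in both windows of TXNRD1, whereas GCLC, NQO1, SRXN1 and TXN had none in this stretch. Of all 35116 windows of this length, 10.9% held a match. HMOX1, SLC7A11 and PRDX1 had no window in the table. The windows with a match are given 5′ to 3′ on the strand of the gene, with the match in capitals. It begins 34 bases before the start of GCLM, which lies on the minus strand, and 99 and 102 bases before the starts of TXNRD1, which lies on the plus strand. In GCLM and in the second window of TXNRD1 the letters read on the opposite strand.
GCLM, chr1:93909431-93909680: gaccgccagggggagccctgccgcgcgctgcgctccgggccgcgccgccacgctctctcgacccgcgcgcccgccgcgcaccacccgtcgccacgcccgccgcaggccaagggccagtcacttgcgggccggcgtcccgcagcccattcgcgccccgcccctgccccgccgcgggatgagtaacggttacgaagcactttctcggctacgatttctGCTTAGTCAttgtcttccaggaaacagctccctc
TXNRD1, chr12:104215529-104215778: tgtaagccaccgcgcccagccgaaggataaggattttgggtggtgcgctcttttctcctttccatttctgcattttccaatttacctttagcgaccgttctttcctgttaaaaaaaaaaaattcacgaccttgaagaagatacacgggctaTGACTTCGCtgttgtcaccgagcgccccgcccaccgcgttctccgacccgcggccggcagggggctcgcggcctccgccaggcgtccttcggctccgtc
TXNRD1, chr12:104286782-104287031: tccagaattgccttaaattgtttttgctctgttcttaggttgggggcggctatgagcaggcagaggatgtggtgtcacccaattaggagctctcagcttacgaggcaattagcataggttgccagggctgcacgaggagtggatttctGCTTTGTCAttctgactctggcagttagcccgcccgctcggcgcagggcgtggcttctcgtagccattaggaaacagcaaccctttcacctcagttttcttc

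Values are given for kept libraries, those with at most 70% of their reads in their 500 highest genes, which were 82 of the Hoechst run, 31 Green and 34 Orange of the benzene run, and 50 Green and 45 Orange of the imatinib run. They held between 50358 and 2043351 reads on genes, with a median of 1283275, and 29 of them had more than 9000 genes with over 2 reads. The median share of mitochondrial reads was 12.5% in the Hoechst run and between 6.21% and 7.02% in the other groups. The K562 markers GATA1, TAL1, KLF1, HBE1, HBZ, HBG1, HBG2, TFRC and PRAME each had more than 2 reads in at least 56.9% of the libraries of each run. Of 8 markers of T cells, B cells, monocytes, fibroblasts and epithelium, KRT5 was at 0 reads, EPCAM lay between 34.8 and 49.8 CPM (counts per 1000000 reads on genes) over whole runs, and the others reached at most 12.2 CPM over a whole run. The highest of these others was COL1A2, at 21.9 CPM in benzene Green, where 9.68% of libraries had more than 2 reads of it.

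Cystine import is the first step towards glutathione, and SLC7A11 is the transporter subunit that carries it (ENSG00000151012, GRCh37 chromosome 4, 139085251 to 139163503, minus strand). In the Hoechst run SLC7A11 ranged from 0 to 729 CPM with a median of 145. In the benzene run the Green libraries had a median of 61.7 CPM (0 to 473) and the Orange libraries one of 78.8 CPM (5.39 to 800). The medians of the imatinib run were 5.32 CPM in Green (0 to 79.1) and 18 CPM in Orange (0 to 330). SLC7A11 was thus high in the Hoechst and benzene runs and low in the imatinib run, with ranges that overlapped in all groups. It had more than 2 reads in 96.3% of the libraries of the Hoechst run (exact binomial 95% interval 89.7 to 99.2%) but in 66.3% of the imatinib run (55.9 to 75.7%). As mean ± SD of log2(CPM + 1), the groups ordered as Hoechst (6.58 ± 2.11), benzene Orange (6.23 ± 1.69), benzene Green (5.93 ± 2.13), imatinib Orange (3.62 ± 2.47) and imatinib Green (2.74 ± 2.00). Only the step from benzene Green to imatinib Orange exceeded the SD of one of its neighbours, and it was smaller than that of imatinib Orange. The antisense gene SLC7A11-AS1 overlaps 865 of the 9645 exon bases, and its own reads came to 8.31%, 1.81% and 1.12% of those of SLC7A11 in the Hoechst, benzene and imatinib runs.

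Glutamate-cysteine ligase makes the next step, with GCLC as its catalytic and GCLM as its modifier subunit. GCLC (ENSG00000001084, chromosome 6, 53362139 to 53481768, minus strand) had a median of 0 CPM in the Hoechst run (highest 158), in the Green (120) and in the Orange libraries (58.4) of the benzene run. Its medians in the imatinib run were 3.34 CPM in Green (0 to 201) and 1.71 CPM in Orange (0 to 55). GCLC was found in a minority of libraries outside the imatinib run, with more than 2 reads in 31.7% of the Hoechst run, 21.5% of the benzene run and 52.6% of the imatinib run. At an equal depth of 500000 reads these shares were 26.2%, 10.8% and 37.9%. GCLM (ENSG00000023909, chromosome 1, 94350755 to 94375012, minus strand) was found in most libraries, 93.9%, 83.1% and 96.8%. Its median was 41.9 CPM in the Hoechst run (0 to 280) and 20.9 CPM in both benzene Green (0 to 215) and benzene Orange (0 to 238). It was 28.1 CPM in imatinib Green (0 to 115) and 35 CPM in imatinib Orange (3.31 to 117). The catalytic subunit therefore had fewer reads than the modifier in every group, also per kilobase of exon, where GCLC lay between 0.451 and 2.18 CPM and GCLM between 6.05 and 12.3 CPM. Neither gene had neighbouring groups whose means lay further apart than their SD.

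Thioredoxin (TXN, ENSG00000136810, chromosome 9, 113006090 to 113018787, minus strand) reduces protein disulfides and passes electrons to peroxiredoxins. Its median was 123 CPM in the Hoechst run (0 to 614), 308 in benzene Green (2.2 to 932), 390 in benzene Orange (27.8 to 887), 245 in imatinib Green (112 to 542) and 246 in imatinib Orange (39.3 to 502). Every kept library of the CellTracker runs had more than 2 reads of TXN, as did 98.8% of those of the Hoechst run. Peroxiredoxin PRDX1 (ENSG00000117450, chromosome 1, 45976586 to 46008404, minus strand), which removes hydrogen peroxide with electrons from thioredoxin, had medians of 479 CPM in the Hoechst run (16.6 to 1447), 1017 in benzene Green (72.1 to 1983), 1005 in benzene Orange (451 to 1787), 844 in imatinib Green (49.8 to 1688) and 860 in imatinib Orange (481 to 1483). PRDX1 was the only member with more than 2 reads in all 242 kept libraries. Both genes were lowest in the Hoechst run, with ranges that overlapped those of the other groups. The step in mean log2(CPM + 1) from the next group to the Hoechst run was larger than the SD of that next group for both genes and smaller than the SD of the Hoechst run. The 7 processed copies TXNP1 to TXNP7 had reads equal to between 0.986% and 3.29% of those of TXN, and PRDX1P1 between 0.0678% and 0.28% of those of PRDX1. MMACHC overlaps 29.8% of the exon bases of PRDX1 on the opposite strand.

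Thioredoxin reductase TXNRD1 (ENSG00000198431, chromosome 12, 104609557 to 104744085, plus strand), which restores reduced thioredoxin from NADPH, was more even. Its medians were 128 CPM in the Hoechst run (0 to 585), 138 in benzene Green (2.85 to 889), 156 in benzene Orange (6.91 to 557), 229 in imatinib Green (16.7 to 706) and 218 in imatinib Orange (4.86 to 1145). TXNRD1 had more than 2 reads in every kept library of the CellTracker runs and in 96.3% of the Hoechst run, and no neighbouring groups differed beyond their SD. Sulfiredoxin SRXN1 (ENSG00000271303, chromosome 20, 627259 to 633844, minus strand), which restores overoxidized peroxiredoxins, had 0 reads in the Hoechst run, 3 reads in 1 Orange library of the benzene run and 12 reads over 5 libraries of the imatinib run. The readthrough gene ENSG00000270299 shares 90.7% of the exon bases of SRXN1 on the same strand, and had 16, 0 and 5 reads in these runs. Reads that fit more than one gene were kept apart in the counting, so these counts do not give the level of SRXN1.

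NQO1, the quinone reductase (ENSG00000181019, chromosome 16, 69740899 to 69760571, minus strand), differed widely from library to library. In the Hoechst run it ranged from 0 to 691 CPM with a median of 7.14, and 24 of the 82 libraries had no read of it. The medians were 73.7 CPM in benzene Green (0 to 1265), 163 in benzene Orange (0 to 1181), 142 in imatinib Green (0.795 to 807) and 221 in imatinib Orange (0.86 to 1857). NQO1 was lowest in the Hoechst run and its ranges overlapped in all groups, with no step between neighbouring groups beyond their SD. It had more than 2 reads in 59.8% of the libraries of the Hoechst run (48.3 to 70.4%), 80% of the benzene run (68.2 to 88.9%) and 97.9% of the imatinib run (92.6 to 99.7%). HMOX1, heme oxygenase (ENSG00000100292, chromosome 22, 35776354 to 35790207, plus strand), was listed at 0 in every library of the Hoechst and imatinib runs and had 2 reads in 1 Orange library of the benzene run. Over the 104117693 reads of the Hoechst run, a count of 0 allows up to 0.0288 CPM for HMOX1 (3 reads), and 0.0251 CPM in the imatinib run. No other gene overlaps its exons in the annotation. Some genes that most cells transcribe were also at or near 0 in this table, with TXNIP at 0 in all runs and GPX1 between 0 and 0.334 CPM. Whether HMOX1 is silent in these cells or its reads were lost in the counting was not tested.

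**Figure D1:**
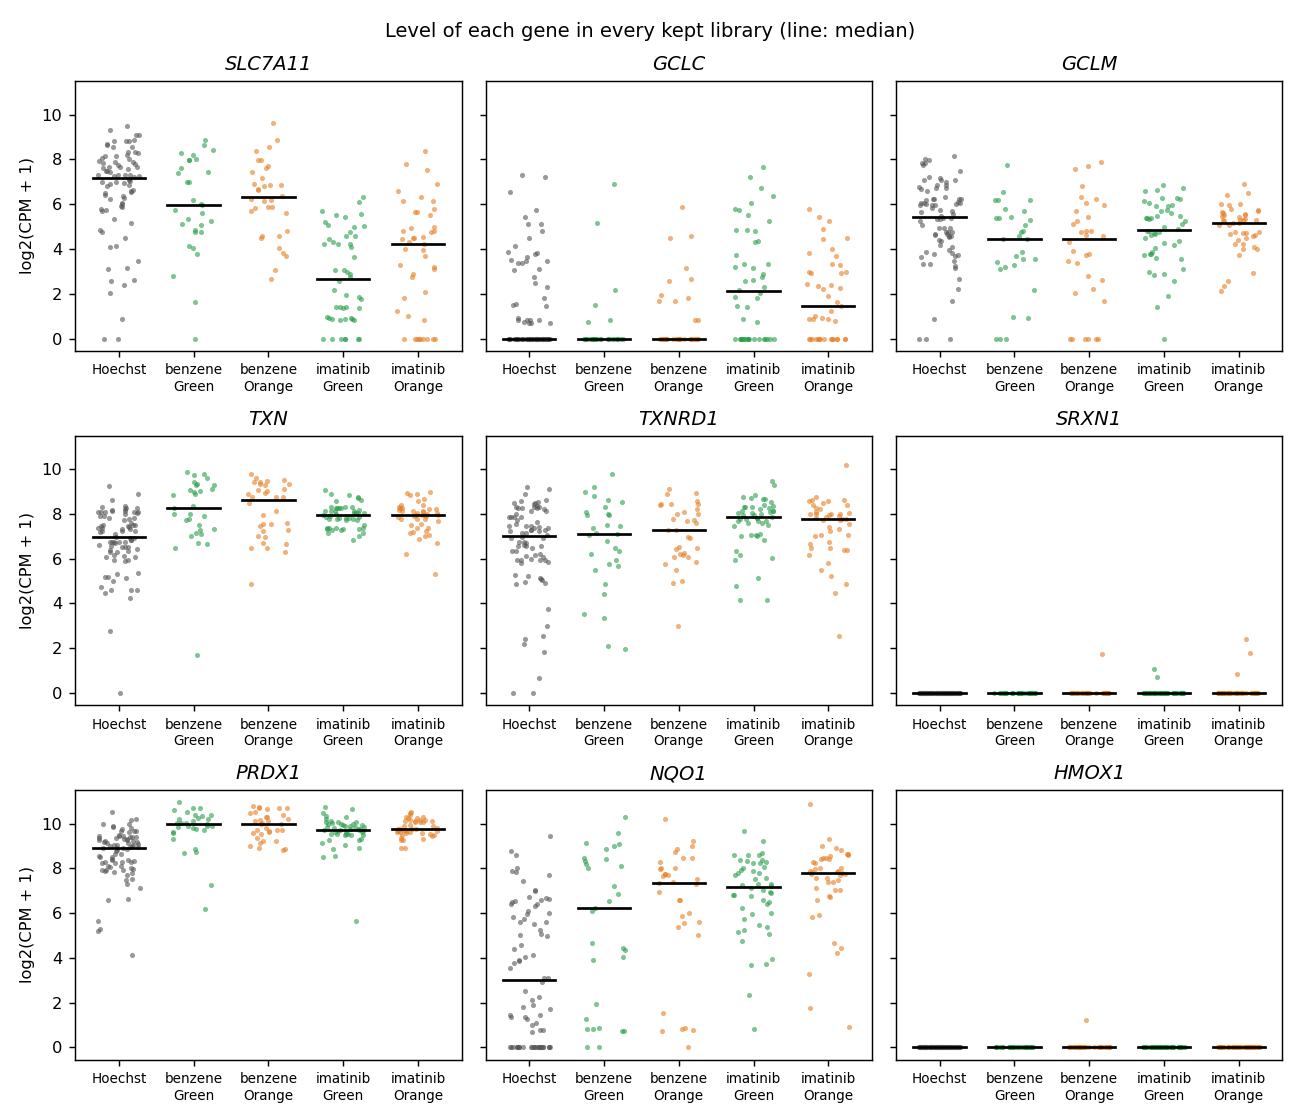
Level of each of the 9 genes in each kept library, as log2(CPM + 1) on the vertical axis, for the 5 groups on the horizontal axis (82, 31, 34, 50 and 45 libraries). Each point is 1 library and the black line is the group's median; SLC7A11 sits lower in the imatinib run, NQO1 sits lower in the Hoechst run, and SRXN1 and HMOX1 lie at or near 0 throughout.

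**Figure D2:**
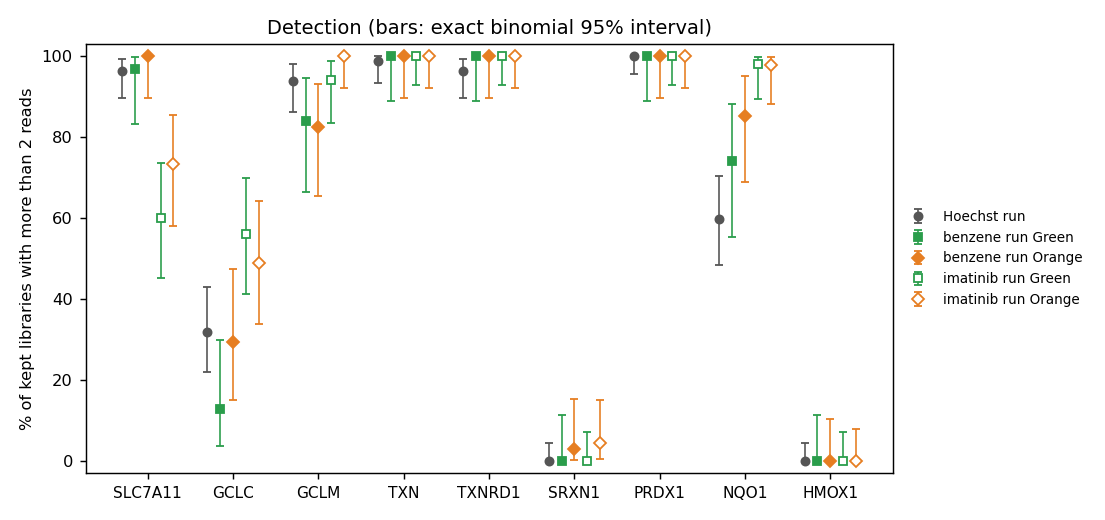
Percentage of kept libraries with more than 2 reads of each gene in each group, with exact binomial 95% intervals that cover counting error only. PRDX1 and TXN are at or near 100% in all groups, GCLC is between 12.9% and 56%, and HMOX1 is at 0%.

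Per kilobase of exon, PRDX1 was the highest member in every group, from 295 CPM in the Hoechst run to 611 in benzene Orange, and TXN was the second, from 152 CPM in the Hoechst run to 380 in benzene Green. NQO1 followed TXN in the CellTracker runs, at between 63.5 and 88.7 CPM per kilobase, and TXNRD1 followed NQO1, at between 29.5 and 35.9. In the Hoechst run TXNRD1 came after TXN at 23.8 CPM per kilobase, ahead of SLC7A11 (17.9) and NQO1 (16.3). With the longest transcript as the length, NQO1 (19.2) passed SLC7A11 (17.9) there. SLC7A11 lay at 13.4 to 17.9 CPM per kilobase of exon in the Hoechst and benzene groups but at 1.46 in imatinib Green, under GCLC (2.18), and at 3.93 in imatinib Orange, above GCLC (0.835). With the longest transcript, SLC7A11 was also under GCLC in the imatinib run as a whole (2.63 against 3.51).

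How far a gene varied over libraries was set against genes of like mean level. The SD of log2(CPM + 1) was compared with a trend over all genes tested in the run, those with more than 2 reads in at least 20% of its kept libraries, and given as a percentile of the residual. NQO1 varied more than most genes of its level in every run, with an SD of 2.95 in the Hoechst run (percentile 94.5 of 10792 genes), 3.14 in the benzene run (97.9 of 9530) and 1.84 in the imatinib run (90.2 of 10834). GCLM varied less than most, with SDs of 1.82, 2.22 and 1.27 at percentiles 9.81, 11.2 and 5.21. TXN was also steady, at percentiles 17.1, 25.4 and 10.3. SLC7A11 and TXNRD1 changed place between runs, from percentiles 88.6 and 77.7 in the Hoechst run to 12.9 and 16.3 in the benzene run. At an equal depth of 500000 reads NQO1 stood at percentiles 92.6, 98.6 and 91.1. NQO1 also followed the share of spike-in (ERCC) reads, which is larger in libraries with less cellular cDNA, with Spearman rho of -0.57 over 82 libraries, -0.46 over 65 and -0.40 over 95. The part of this in its spread was not tested.

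**Figure D3:**
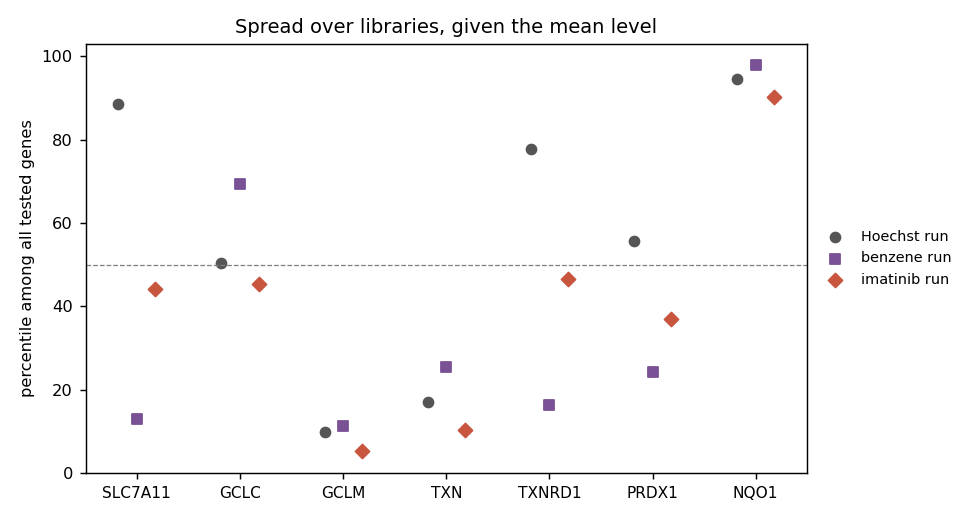
Percentile, among all tested genes of a run, of each gene's spread over libraries given its mean level (vertical axis, 0 to 100; dashed line at 50), for 7 genes in 3 runs. NQO1 lies at 90.2 or above in every run, and GCLM at 11.2 or below.

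The 7 members that could be tested showed little co-expression within a run. Over their 21 pairs, the median Spearman rho was -0.00 in the Hoechst run (82 libraries), 0.03 in the benzene run (65) and 0.02 in the imatinib run (95), beside medians of 0.04, 0.06 and 0.04 over all pairs of tested genes. Of the 21 pairs, 2, 3 and 1 lay above the 95th percentile of all pairs, which was 0.24, 0.28 and 0.23. PRDX1 and TXN, enzyme and electron donor, had rho of 0.23, 0.53 and 0.24 in the 3 runs. NQO1 and TXN had rho of 0.24, 0.34 and 0.19. SLC7A11 and TXN were opposed in the Hoechst (-0.31) and benzene runs (-0.42) but not in the imatinib run (0.12). TXNRD1, which acts on thioredoxin, had rho of -0.07, -0.01 and 0.02 with TXN. The subunits GCLC and GCLM had 0.02, 0.19 and -0.06. Libraries share their depth and cDNA quality, which enter every pair, and with the number of detected genes held constant PRDX1 and TXN had partial rho of 0.23, 0.51 and 0.26. TXN and PRDX1, like NQO1, were lower where the share of spike-in reads was higher in the benzene run (rho -0.39 and -0.41), and in the Hoechst run with all 96 libraries the median over pairs was 0.18 against 0.15 for all pairs.

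**Figure D4:**
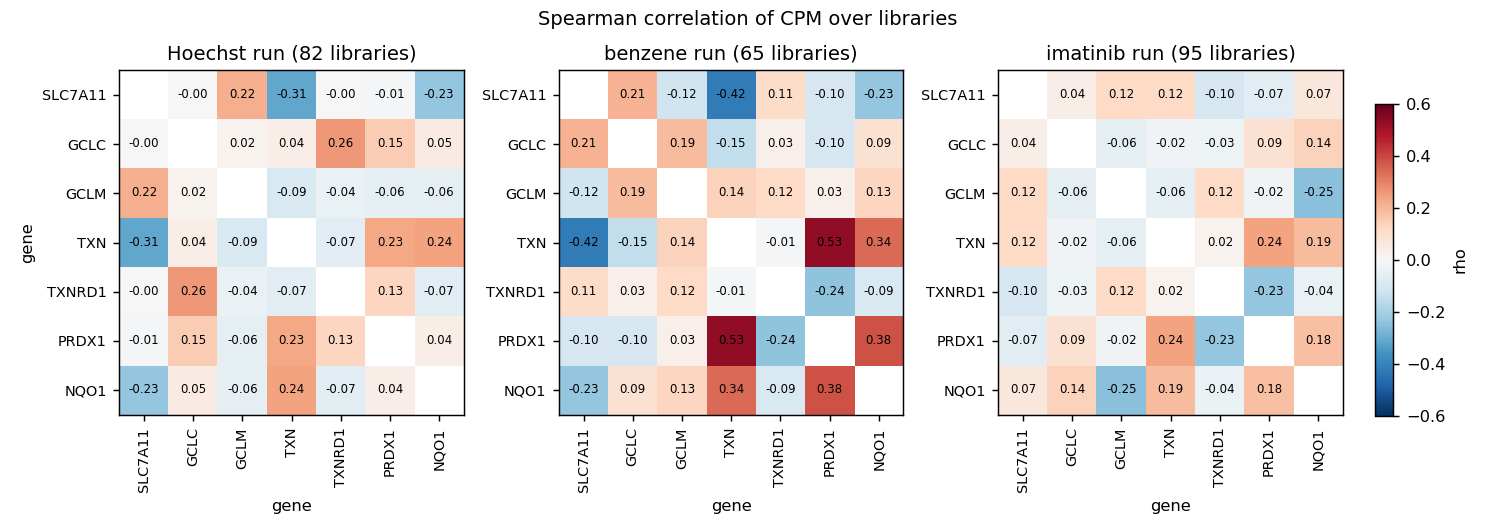
Spearman correlation of CPM over kept libraries for the pairs of the 7 tested genes, 1 panel per run, with rho as colour and number. PRDX1 with TXN is the highest pair of the benzene run (0.53), and SLC7A11 with TXN the lowest (-0.42).

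The genes most like each member were sought among 5098 genes with more than 2 reads in at least 50% of the kept libraries of every run, by the mean of the 3 within-run rho. TXN was most like H2AZ1 (mean rho 0.53), a histone variant, and RPLP0 (0.52). Ribosomal protein genes also came first for NQO1, RPL3 (0.48) and RPLP0 (0.47), and for PRDX1, RPL19 (0.44) with the ribosomal pseudogene RPL23AP42 (0.44). SLC7A11 was most like MALAT1 (0.38), a nuclear noncoding RNA, and UBA6 (0.34), a ubiquitin-activating enzyme. For TXNRD1 the first was IARS2 (0.30), and for GCLM the pseudogene PABPC1P3 (0.25) and CBX3 (0.25). No member came first for another member.

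Between the untreated groups, some members were past 2-fold in each comparison, as were many of all genes. Ratios are of CPM of the summed libraries with 0.5 CPM added, they have no replicate check since each group was taken as 1 culture, and a gene is counted as different past 2-fold. SLC7A11 was lower in imatinib Green (14.1 CPM) than in benzene Green (129 CPM), by a log2 ratio of -3.15, and GCLC was higher (18.8 against 4.85 CPM, 1.85). These were 2 of 7 tested members past 2-fold, where 31% of 10249 genes were (19% higher and 12% lower), and only 0.234% of those genes had a lower ratio than SLC7A11. GCLC had more than 2 reads in 12.9% of benzene Green and 56% of imatinib Green libraries, so it passed the 20% filter only through the group where it was higher. In benzene Green, 1 library held 72.7% of its 205 reads. NQO1 was close on sums (189 against 209 CPM, -0.15) but with libraries weighted equally it was higher in imatinib Green by 1.42 (6.80 ± 1.77 against 5.39 ± 3.42). That made 3 of 7 past 2-fold, and the share of all genes with libraries weighted equally was not computed. The Hoechst run stood below benzene Green for NQO1 (48.6 against 209 CPM, -2.10), TXN (153 against 384, -1.32) and PRDX1 (496 against 1000, -1.01), and above it for GCLM (66.7 against 32.8, 1.01). That made 4 of 7 past 2-fold beside 38.7% of 10505 genes (26.8% higher and 11.9% lower). Against imatinib Green, the Hoechst run was higher for SLC7A11 (173 against 14.1 CPM, 3.57) and lower for NQO1 (48.6 against 189, -1.95) and GCLC (9.07 against 18.8, -1.01), 3 of 7 beside 33.9% of 10813 genes (21% higher and 12.9% lower). These comparisons share groups. The medians over all genes were 0.12, 0.26 and 0.14, and TMM factors moved all ratios by -0.13, -0.30 and -0.14, which left GCLM of the Hoechst run against benzene Green under 2-fold. TXNRD1 was under 2-fold on sums in the 3 comparisons (0.28, -0.31 and -0.59). With libraries weighted equally it was past 2-fold in the last of them, the Hoechst run against imatinib Green (-1.05). Passage, stain, sequencing and culture differ between the Hoechst run and the others. By the study's account, fixed cells of the Hoechst-stained experiment were also stored longer, and only there were dead cells sequenced. These differences cannot be told apart.

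In the benzene run, the summed levels of the members lay close together in Orange and Green libraries. The 7 tested members had log2 ratios of Orange against Green from -0.29 to 0.28 and a median of 0.01, while the median over all 9530 genes was 0.04. None of the 7 was past 2-fold, whereas 23.3% of all genes tested were (12.2% higher and 11% lower), and at that share fewer than 2 of 7 would be. NQO1 stood at 209 CPM in Green and 203 CPM in Orange (log2 ratio -0.04, with an interval from -0.08 to -0.00 for counting error only). On the mean of log2(CPM + 1), which weights libraries equally, it was 5.39 in Green and 6.29 in Orange, and the medians were 73.7 and 163 CPM. The difference of 0.91 was smaller than the SD over libraries in either group (3.42 and 2.84). SLC7A11 had 129 and 140 CPM (0.12), GCLM 32.8 and 40 CPM (0.28), TXNRD1 198 and 199 CPM (0.01), PRDX1 1000 and 1028 CPM (0.04) and TXN 384 and 370 CPM (-0.05). The Green and Orange libraries overlapped widely in all of them. GCLC rested on few reads, 205 in Green and 179 in Orange, and 1 Green library held 72.7% of the former. Its log2 ratio was -0.29 on sums, 1.24 without that library and 2.68 when kept libraries had at most 60% of reads in their 500 highest genes, and its direction was also higher in Orange with libraries weighted equally (0.39). The count of 0 of 7 therefore became 1 of 7 at the 60% limit, where 28.3% of 9847 genes were past 2-fold.

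In the imatinib run, SLC7A11 was higher and GCLC lower in the treated Orange libraries. SLC7A11 had 14.1 CPM in Green and 37.9 CPM in Orange, a log2 ratio of 1.39, and 98.7% of the 10834 genes tested had a lower ratio. The share of libraries with more than 2 reads of it was 60% in Green (45.2 to 73.6%) and 73.3% in Orange (58.1 to 85.4%), and the libraries of the groups overlapped. GCLC had 18.8 CPM in Green and 7.2 CPM in Orange, a log2 ratio of -1.32, with 2.01% of genes lower. Its detected share was 56% in Green and 48.9% in Orange. They were 2 of 7 members past 2-fold, 1 in each direction, beside 7.92% of all genes (3.55% higher and 4.37% lower). Leaving out any 1 of the 95 libraries kept the ratio of SLC7A11 between 1.17 and 1.51 and that of GCLC between -1.52 and -1.13. With libraries weighted equally, both ended under 2-fold, at 0.88 for SLC7A11 (2.74 ± 2.00 in Green and 3.62 ± 2.47 in Orange) and -0.58 for GCLC (2.43 ± 2.40 and 1.85 ± 1.80), each less than the SD over libraries. NQO1 was 189 CPM in Green and 263 CPM in Orange (0.48), with 87.4% of genes lower. GCLM (-0.04), TXN (-0.03), PRDX1 (0.08) and TXNRD1 (-0.13) hardly differed, and the median over the 7 was -0.03 beside -0.02 over all genes. SRXN1 had 3 reads in Green and 9 in Orange.

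**Figure D5:**
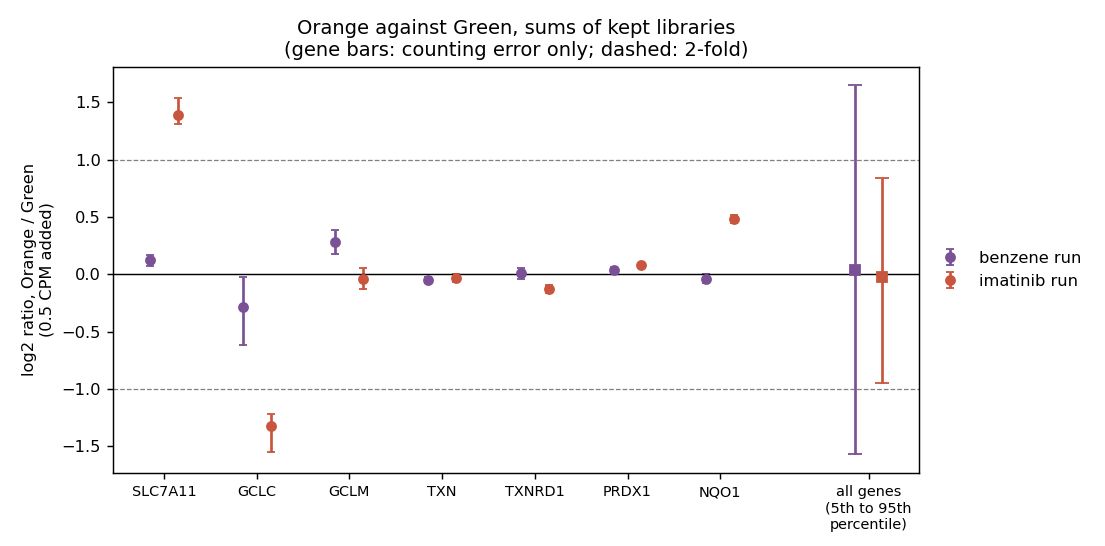
Log2 ratio of Orange against Green (vertical axis, CPM of summed libraries with 0.5 CPM added) for the 7 tested genes in the benzene and imatinib runs, with 95% intervals of the ratio without the added CPM for counting error only, and at the right the median and the 5th to 95th percentile of all genes. SLC7A11 (1.39) and GCLC (-1.32) of the imatinib run are the points outside the dashed 2-fold lines.

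What the Orange sums shared over both runs was tested with edgeR's quasi-likelihood test on the 4 sums with the run as a term, which leaves 1 residual degree of freedom, and the drug differs between the runs. edgeR called 0 of 10373 genes at a Benjamini-Hochberg adjusted p under 0.05, that is 0% of genes, with 273 genes at an unadjusted p under 0.05. The members had log2 changes in edgeR from -0.86 for GCLC (adjusted p = 0.986) to 0.76 for SLC7A11 (adjusted p = 0.986). DESeq2 called 20 genes, with 644 at an unadjusted p under 0.05, and SLC7A11 was not among them (DESeq2 adjusted p = 0.759). limma called 0, with 308 at an unadjusted p under 0.05.

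Of the regulators of NRF2, 9 of 12 were tested in each CellTracker run. In the benzene run 1 of the 9 was past 2-fold on sums, beside 23.3% of all genes. It was the ligase scaffold CUL3 (16 CPM in Green and 44.7 CPM in Orange, 1.45), a gene named after its values were seen. NFE2L2 itself had 358 CPM in Green and 182 CPM in Orange (-0.98), with medians over libraries of 129 and 81.9 CPM. KEAP1 had 54.4 and 32 CPM (-0.76), BACH1 36.2 and 46.4 CPM (0.36), and MAFG, a small MAF partner, 59.3 and 57 CPM (-0.06). With libraries weighted equally, CUL3 was under 2-fold (0.81), while NFE2L2 (-1.01) and KEAP1 (-1.31) were past it, both lower in Orange. BACH1 and MAFG were at 0.42 and -0.28. The share of all genes past 2-fold on this measure was 8.42%. The differences of NFE2L2 and KEAP1 were smaller than their SD over Green libraries (2.41 and 3.10). With imatinib, 0 of the 9 regulators was past 2-fold, beside 7.92% of all genes. There NFE2L2 had 93.5 CPM in Green and 107 CPM in Orange (0.19), KEAP1 132 and 139 CPM (0.07), BACH1 46.1 and 37.8 CPM (-0.28) and MAFG 55.3 and 78.5 CPM (0.50). NFE2L2 was lower in the other untreated groups than in benzene Green, by -1.93 in imatinib Green and -1.95 in the Hoechst run (92.4 CPM).

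Among other NRF2 targets, 18 of 25 were tested in each CellTracker run. In the benzene run 1 was past 2-fold higher in Orange, the glutathione conjugate pump ABCC1 (41.1 and 100 CPM, 1.27), and 2 were lower, among them UGDH (41.5 and 16.4 CPM, -1.31), which makes UDP-glucuronate. These counts lie beside 12.2% of all genes higher and 11% lower. The direction of ABCC1 turned with libraries weighted equally, at a mean log2(CPM + 1) of 3.08 in Green and 2.64 in Orange (-0.45), and its medians were 6.42 and 3.53 CPM. ME1, malic enzyme and a source of NADPH, stood at 29.1 and 16 CPM (-0.85). The median of the 18 was 0.01. In the imatinib run 0 of the 18 was past 2-fold, beside 7.92% of all genes, and the median was 0.13, with UGDH at 12.1 and 18.9 CPM (0.63), ME1 at 5.46 and 8.13 CPM (0.54) and ABCC1 at 33.8 and 38.2 CPM (0.17, and -0.47 with libraries weighted equally). No gene of this list was called by edgeR.

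Of the glutathione and thioredoxin peers, 16 of 19 were tested in the benzene run and 15 in the imatinib run. In the benzene run 2 were past 2-fold, both lower in Orange on sums, beside 11% of all genes lower. CHAC1, which degrades glutathione, had 138 CPM in Green and 26.9 CPM in Orange (-2.34), with medians of 11.8 and 1.14 CPM, and glutaredoxin GLRX had 16.4 and 6.87 CPM (-1.20). For GLRX the sums rested on few libraries, since both medians were 0, the detected shares were 19.4% in Green and 26.5% in Orange, and the difference with libraries weighted equally was -0.05. Glutathione synthetase GSS had 165 and 309 CPM (0.90) and mitochondrial thioredoxin reductase TXNRD2 46.1 and 61.1 CPM (0.40). With libraries weighted equally, the differences were 1.45 for TXNRD2, 0.66 for GSS and -1.94 for CHAC1. On this measure 8.42% of all genes were past 2-fold. TXNRD2 had medians of 0.748 and 14.1 CPM, with detected shares of 35.5% in Green and 58.8% in Orange. In the imatinib run 0 of the 15 was past 2-fold, beside 7.92% of all genes. TXNRD2 stood at 60.2 and 30.4 CPM (-0.97), GLRX at 6.8 and 5.49 CPM (-0.29) and GSS at 232 and 271 CPM (0.22). For TXNRD2 the difference with libraries weighted equally was -0.28 there, with detected shares of 72% in Green and 75.6% in Orange. CHAC1 was found in 4% of Green and 4.44% of Orange libraries there and was not tested. Its sums there were 13.1 and 2.4 CPM (-2.22), and the difference with libraries weighted equally was -0.00. Over both runs CHAC1 had a log2 change of -2.41 in edgeR (adjusted p = 0.986) and was called by DESeq2 (adjusted p = 8.63e-05), the lowest adjusted p of that tool. CHAC1 passed the detection filter over both runs through the benzene run, with more than 2 reads in 52.3% of its libraries against 4.21% in the imatinib run. The p-values over both runs are therefore no support from the imatinib run.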

How the data were processed

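Trimmed reads were mapped by the authors with HISAT2 to GRCh37 plus ERCC spike-in sequences, and reads unique to an Ensembl gene were counted with featureCounts. The deposited table holds these raw counts, 1 column per library. The use of strand and of duplicate marks in counting is not given in the sources used here. Reads carry no molecular identifiers, so intervals (exact Poisson or binomial, 95%) cover counting error only. The deposited CPM table was not used. Of 267 columns, 263 matched a library title. The other 4 matched none and were not used. No libraries had identical counts. Each run and stain was taken as 1 culture, since the labels name no separate ones, so only the sums over both CellTracker runs were tested.

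CPM was computed per 1000000 reads on genes without ERCC sequences. Kept libraries had at most 70% of reads in their 500 highest genes. A gene was detected at more than 2 reads and tested where detected in 20% of the kept libraries. For an equal depth, reads were drawn down to 500000 per library, a depth that 2 libraries of the Hoechst run did not have. In R 4.3.3, sums were tested with edgeR 4.0.16, and again with limma 3.58.1 and DESeq2 1.42.0. Other values came from Python 3.11.15, numpy 2.4.6, pandas 2.3.3, scipy 1.17.1 and statsmodels 0.14.6, and figures from matplotlib 3.10.9. Gene positions and symbols came from GENCODE v44lift37, which is newer than the authors' annotation and held 55665 of the identifiers. The steps were also run on simulated data, and the outcome is not given here. The members, lists and rules were chosen with earlier results of these data known. Named were the 9 members, 4 regulators, up to 4 genes per other list with the largest Orange against Green ratio in either run, and the 2 genes most like each member detected in 50% of libraries. Alternatives covered the libraries kept, weights, depth, scaling, added CPM, filters, tools and gene length. Some genes that the lists or this rule would name are not reported here.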

Additional observations from a re-analysis of the deposited data

How the results depend on the processing

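In all, 88 results were recomputed under 553 alternative values, of which 109 were added after seeing the data (libraries with more than 9000 genes left out, and each library left out in turn), and 29 moved beyond the limits set. For the ratio of a member the limit was an SD of log2(CPM + 1) over single libraries, such as 3.42 for NQO1 of imatinib Green against benzene Green. Such limits are wide and few ratios could pass them, so the count of 29 does not measure how stable the ratios are. No ratio of a member past 2-fold changed its sign, but ratios within 2-fold did, such as GCLC in the benzene run (-0.29, with 3 of 12 alternatives above 0) and NQO1 of imatinib Green against benzene Green (-0.15, and 1.42 with the mean of log2(CPM + 1)). With a limit of 60% on the share of the top 500 genes, 1 member of 7, GCLC, was past 2-fold in the benzene run (log2 ratio 2.68). The share of all genes past 2-fold at this limit was 28.3%. In the imatinib run, 0 members were past 2-fold with the mean of log2(CPM + 1) and 0 with 10 CPM added. All genes past 2-fold also became fewer, 8.42% and 11.4% in the benzene run and 2.39% and 0.895% in the imatinib run. Over 12 alternatives each, SLC7A11 of the imatinib run lay between 0.88 and 1.46 and GCLC between -1.49 and -0.58. TMM factors turned the split in the benzene run from 1166 genes higher and 1051 lower to 1047 higher and 1173 lower. Between the Hoechst run and imatinib Green, 6 of 7 members were past 2-fold with the mean of log2(CPM + 1) (NQO1, GCLC, TXNRD1, SLC7A11, PRDX1 and TXN). The share of all genes past 2-fold on this mean was not computed, so the count is not a result about the members. DESeq2 called 20 genes (8 higher and 12 lower) where edgeR called 0. With all libraries, the median rho of the Hoechst run was 0.18. The cause of these moves was not tested. The other values that moved were detected shares, which depend on depth and on the minimum of reads, for example 45.1% for GCLC in the Hoechst run at 1 read. No paired analysis was possible because the numbers in the titles name libraries and pair no groups.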

Other observations

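Some NRF2 targets that are not among the 9 genes had higher summed levels in the untreated Green libraries of the benzene run than in the other untreated groups. Isocitrate dehydrogenase IDH1 had 362 CPM in benzene Green, 63.3 CPM in imatinib Green (log2 ratio -2.51) and 87.8 CPM in the Hoechst run (-2.04). The aldo-keto reductase AKR1C2 had 55.3, 15.8 and 10 CPM and malic enzyme ME1 29.1, 5.46 and 5.95 CPM. With libraries weighted equally the log2 ratios were -3.21 and -2.58 for IDH1, -1.02 and -1.83 for AKR1C2, and -1.32 and -1.35 for ME1. Of the 18 tested genes of that list, 5 were past 2-fold lower and 0 higher in imatinib Green, beside 12% and 19% of all genes, and 6 were lower and 0 higher in the Hoechst run, beside 11.9% and 26.8%. The genes named here were chosen after their values were seen, the comparisons share benzene Green, and each group was taken as 1 culture, so no test was made.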
